A study of Mus musculus with 37 samples.

Results

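The gasdermin family was described in the colon of mice with dextran sulfate sodium (DSS) colitis, a model in which the agent damages the gut lining. The family list held 6 genes, Gsdmc, Gsdmc2, Gsdmc3, Gsdmc4, Gsdmd and Gsdma, of 19938 genes measured on the array. The family was chosen by a measured value, the strong genotype interaction of Gsdmc4 in these same arrays, and the rule did not name the phase. Each gene was read from the transcript cluster (the array's probe set for one transcript region) that was annotated to its symbol alone. Only 5 of the 6 had such a cluster, because Gsdmc3 appeared only in a cluster shared with Gsdmc2 and Gsdmc4.

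The 37 arrays came from C57BL/6J wild-type mice and from B6.129S4-Timp1tm1Pds/J knockout mice, which lack Timp1, an inhibitor of matrix metalloproteinases. Wild-type mice gave 3 acute controls, 5 acute DSS arrays, 5 chronic controls and 5 chronic DSS arrays. Knockout mice gave 3 acute controls, 6 acute DSS arrays, 5 chronic controls and 5 chronic DSS arrays. RNA came from whole snap-frozen colon, and the labels give no dose, duration or age and do not call the strains littermates. Each title carries its own animal number, so replicates were taken as separate mice, and the p-values measure the spread between these arrays.

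Gasdermins are pore-forming proteins. A protease cuts the protein, and the freed amino-terminal part inserts into the cell membrane and opens pores that let cytokines out and can kill the cell, a death called pyroptosis. Gsdmd is the best-studied member and is cut by inflammatory caspases downstream of inflammasomes. The Gsdmc copies are known from the gut epithelium of mice, where type 2 cytokine signalling through Stat6 raises them, and Gsdma is known from skin and other squamous epithelium.

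In the RefSeq gene table for mouse, the order along chromosome 15 is Gsdmc, Gsdmc2, Gsdmc3 and Gsdmc4, with pseudogenes of the same family between and after them. Gsdmd lies elsewhere on chromosome 15, and Gsdma lies on chromosome 11 beside Gsdma3 and Gsdma2. The copies of Gsdmc are related genes whose sequences were not compared here. Gsdmc2, Gsdmc3 and Gsdmc4 share clusters on the array, so the signal of each single cluster may hold transcript of other copies. Of the 6 genes, 1 had a promoter window in the RefSeq table for assembly GRCm38.p6, namely Gsdmc3. It is shown because Gsdmc3 belongs to the run of copies that moved together and had no cluster of its own. Its window lies at chr15:63878509-63878808 on the minus strand and is 300 bases long.
Gsdmc3: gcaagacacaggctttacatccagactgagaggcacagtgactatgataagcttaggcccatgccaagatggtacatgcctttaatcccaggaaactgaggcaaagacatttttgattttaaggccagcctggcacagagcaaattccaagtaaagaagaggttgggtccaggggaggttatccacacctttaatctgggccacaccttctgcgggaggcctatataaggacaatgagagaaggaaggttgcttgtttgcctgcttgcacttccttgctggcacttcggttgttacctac
None of the 4 motifs searched on both strands matched it, so no letter is in capitals. They were the STAT6-type element (TTC and GAA with any 4 bases between them), the GAS element (TTC and GAA with any 3 bases between them), the interferon regulatory factor element (GAAA, any 2 bases, GAAA) and the TATA box TATAAA. They matched 6.95%, 8.30%, 3.44% and 13.6% of the 32851 windows of that length in the table. None of these motifs contains another, and a missing match says only that these letters are not in this window.

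Timp1, the targeted gene, checked the labels. In wild type its log2 signal was 7.56 to 7.76 in acute controls and 9.47 to 12.19 under acute DSS, and in the knockout it was 6.94 to 7.12 and 7.10 to 8.68. In the chronic phase it was 6.99 to 7.28 in wild-type controls and 7.20 to 9.27 in wild-type DSS arrays, against 6.83 to 7.46 over all knockout arrays. Under acute DSS every wild-type array lay above every knockout array. The highest knockout value, 8.68 in acute DSS replicate 6, lay above all wild-type controls and above wild-type chronic DSS replicates 2 and 5 (7.93 and 7.20). In chronic controls the genotypes overlapped, so Timp1 does not check those labels. Under chronic DSS wild-type replicate 5 (7.20) lay below knockout replicate 1 (7.30), so the check is incomplete there. Which stretch of Timp1 was deleted and whether the probes lie in it is not given in the sources used here. Titles number the animals in 4 series. Series 1 held the wild-type arrays of the acute phase plus 3 knockout arrays under acute DSS (replicates 1 to 3). Series 2 held the remaining knockout arrays of the acute phase, which include every acute knockout control. Series 3 held the wild-type arrays under chronic DSS and 3 of their controls (replicates 1 to 3). Series 4 held both knockout groups of the chronic phase plus wild-type controls 4 and 5. The acute controls of the genotypes thus lie in different series, and so do the chronic DSS arrays of the genotypes, so genotype and series cannot be told apart in those direct comparisons.

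The epithelium was present in all arrays. The mean log2 signal of 8 epithelial markers (Krt8, Krt19 and Cdh1 the brightest) was 12.20 to 12.64 outside the wild-type acute DSS group. In that group it was 11.74, 12.40, 10.95, 12.37 and 12.35 in replicates 1 to 5, so replicates 1 and 3 stood apart. For the gasdermins and the named inflammasome and regulator genes, acute results are also given without those replicates where that ended or created a call or moved the value by over 1.5 times. That alternative was chosen after seeing the data. In addition, 1 knockout acute control and 1 knockout acute DSS array carried Y-linked signal that the other arrays lacked.

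**Figure D1:**
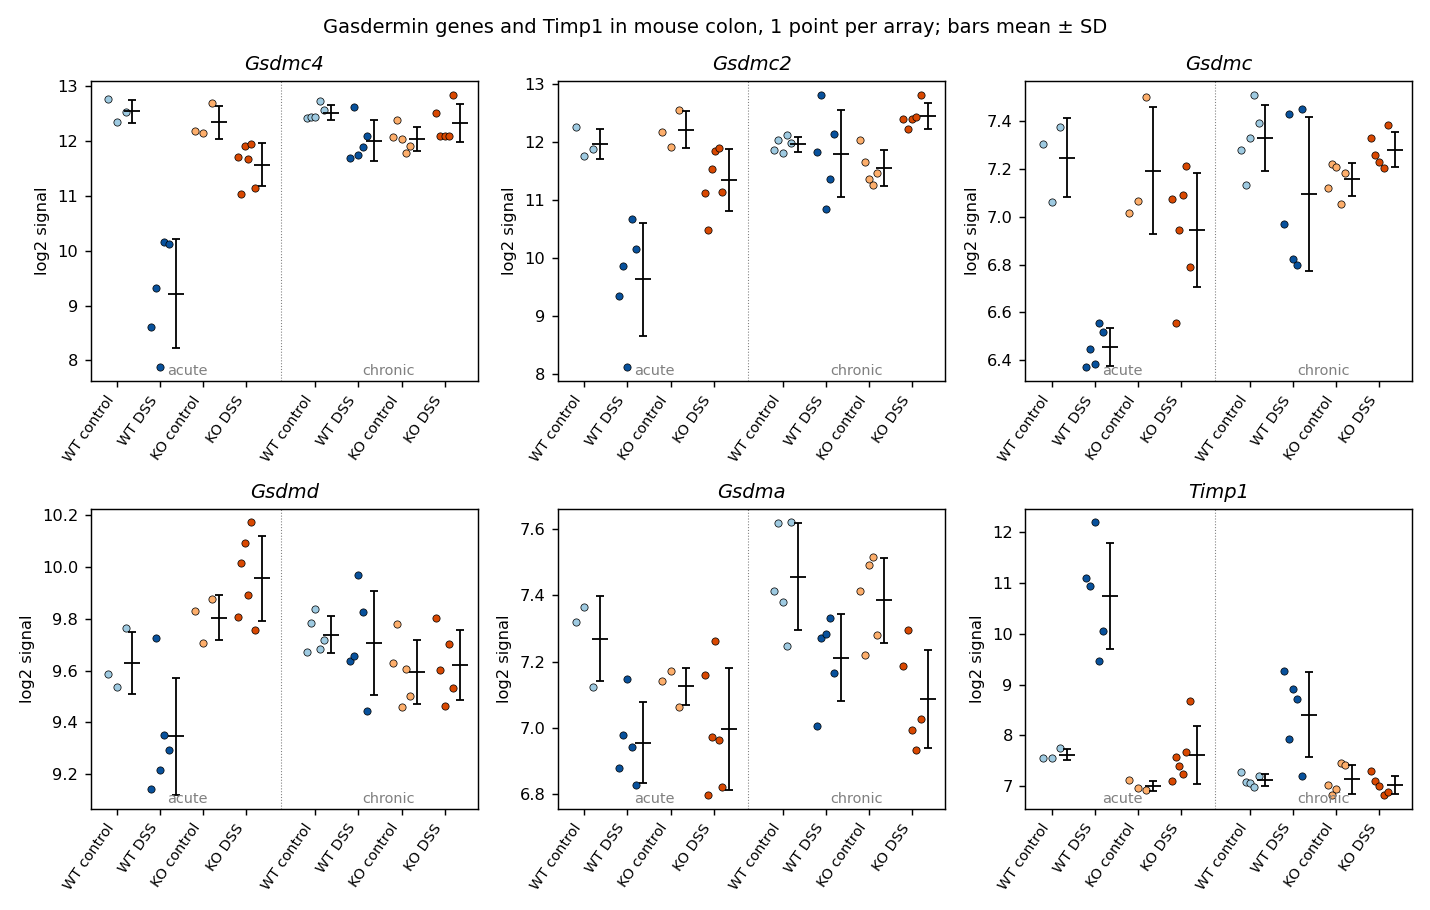
Log2 signal of 5 gasdermin genes and Timp1 on 37 arrays (1 point per array), by genotype, treatment and phase, with bars for the mean and SD of each group. The wild-type acute DSS arrays of Gsdmc4, at 7.88 to 10.15, lie below every other array of that gene.

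Gsdmc4 was lowest in wild-type acute colitis. Its log2 signal in wild-type acute controls was 12.75, 12.33 and 12.53, and under acute DSS it was 8.61, 9.32, 7.88, 10.15 and 10.13. In the knockout the acute controls read 12.18, 12.14 and 12.69, and the 6 acute DSS arrays had a lowest value of 11.04, a median of 11.68 and a highest of 11.94. All 5 wild-type DSS arrays lay below all wild-type controls, and all 6 knockout DSS arrays lay below all knockout controls, but every knockout DSS array lay above every wild-type DSS array. The fitted difference between DSS and control was -3.32 ± 0.32 (SE, 5 against 3 arrays) in wild type, a signal 9.98-fold lower, and -0.77 ± 0.31 (6 against 3) in the knockout, 1.71-fold lower. The knockout minus wild-type difference was -0.20 ± 0.36 in acute controls and 2.35 ± 0.27 under acute DSS. Their difference, the genotype by DSS interaction, was 2.55 ± 0.45 on the log2 scale. The family was chosen on a genotype interaction of Gsdmc4 whose phase the rule does not name. These values are therefore a description, and no test is given for any Gsdmc copy in the acute phase or in an interaction. Without wild-type DSS replicates 1 and 3 the wild-type difference was -2.67, the knockout minus wild-type difference under DSS 1.70 and the interaction 1.90.

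Gsdmc2 moved in the same direction with a wider spread. It read 12.25, 11.76 and 11.87 in wild-type acute controls and 9.35, 9.86, 8.12, 10.67 and 10.16 under acute DSS. Knockout acute controls read 12.16, 11.92 and 12.54, and the 6 knockout acute DSS arrays had a lowest value of 10.48, a median of 11.34 and a highest of 11.90. The DSS arrays lay below their own controls in both genotypes, while the ranges of the genotypes under DSS overlapped at 1 knockout array. The DSS minus control difference was -2.33 ± 0.37 in wild type (5.02-fold lower) and -0.87 ± 0.36 in the knockout. The knockout minus wild-type difference was 0.25 ± 0.42 in controls, where it turned to -0.34 ± 0.59 with the series of animal numbers as a covariate. Under DSS it was 1.70 ± 0.31, and the interaction was 1.46 ± 0.52. Without wild-type DSS replicates 1 and 3 these values were -1.73 for DSS in wild type, 1.11 for the knockout under DSS and 0.86 for the interaction.

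Gsdmc, the copy at the start of the chromosomal run, moved by less. It was dim, with a highest value of 7.51, below the lowest array median over all clusters (7.67). Wild-type acute controls read 7.30, 7.06 and 7.38, and the wild-type acute DSS arrays read 6.37, 6.45, 6.38, 6.55 and 6.52. Knockout acute controls read 7.01, 7.06 and 7.50, and knockout acute DSS arrays ran from 6.56 through a median of 7.01 to 7.21. The wild-type DSS arrays were below all wild-type controls and below all 6 knockout DSS arrays, narrowly so between the highest wild-type value of 6.55 and the lowest knockout value of 6.56, whereas knockout DSS arrays and knockout controls overlapped. DSS minus control was -0.79 ± 0.14 in wild type and -0.25 ± 0.13 in the knockout, knockout minus wild type under DSS was 0.49 ± 0.11, and the interaction was 0.54 ± 0.19. Without wild-type DSS replicates 1 and 3 the interaction was 0.49 ± 0.20.

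Gsdmc3 could be followed only through the cluster that it shares with Gsdmc2 and Gsdmc4. In that shared cluster DSS minus control was -3.13 ± 0.36 in wild type and -0.95 ± 0.35 in the knockout, with DSS arrays below controls in both. Knockout minus wild type under acute DSS was 1.89 ± 0.30, every knockout array lying above every wild-type array. A further cluster shared by Gsdmc2 and Gsdmc4 gave -4.00 ± 0.41, -0.95 ± 0.40 and 2.08 ± 0.34 for the same comparisons. With wild-type DSS replicates 1 and 3 left out, knockout minus wild type under DSS was 1.25 ± 0.26 in the former cluster and 1.49 ± 0.34 in the latter. In the latter the knockout acute controls were also all below the wild-type ones (-0.97 ± 0.46), which was not seen for Gsdmc4 or Gsdmc2 in their own clusters. These shared clusters cannot tell Gsdmc3 from its neighbours.

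In the chronic phase no Gsdmc copy passed for DSS or genotype in the fit over all groups. These differences are the parts of the chronic interaction, and if the rule used that phase their p-values are no independent test. Gsdmc4 read 12.42, 12.43, 12.43, 12.72 and 12.57 in wild-type controls and 11.68, 12.61, 11.74, 11.89 and 12.09 under DSS, a difference of -0.51 ± 0.28 (limma adjusted p = 0.244). In the knockout it read 12.07, 12.37, 12.03, 11.78 and 11.90 in controls and 12.51, 12.09, 12.09, 12.08 and 12.84 under DSS, a difference of 0.29 ± 0.28 (limma adjusted p = 0.568). Neither passed, and the groups overlapped in both genotypes. The wild-type fall passed with array weights (-0.53, limma adjusted p = 0.0471) and when only those groups were fitted (limma adjusted p = 0.0324), but not with the series as a covariate or within series 3 (-0.43 in both, limma adjusted p = 0.45 and 0.471). All 5 knockout chronic controls lay below all 5 wild-type chronic controls, but the difference of -0.48 ± 0.28 did not pass (limma adjusted p = 0.624). Under chronic DSS knockout minus wild type was 0.32 ± 0.28 (limma adjusted p = 0.604), with a 95% interval of -0.25 to 0.89, and with the series as a covariate it was 0.11 ± 0.50. The chronic interaction of 0.80 ± 0.39 is a description.

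Gsdmc2 separated DSS arrays from controls in the chronic knockout groups, without passing. Knockout chronic controls read 12.04, 11.65, 11.36, 11.26 and 11.46, and knockout chronic DSS arrays read 12.39, 12.22, 12.39, 12.44 and 12.81, so that all DSS arrays lay above all controls. The difference of 0.89 ± 0.32 did not pass in the fit over all groups (limma adjusted p = 0.0816). It passed when only those 10 arrays were fitted (limma adjusted p = 0.00703) or when arrays were weighted by quality (1.00, limma adjusted p = 0.0047). The clusters it shares gave 0.12 ± 0.32 with Gsdmc3 and Gsdmc4 and -0.35 ± 0.35 with Gsdmc4 alone for the same comparison, with overlapping groups (limma adjusted p = 0.85 and 0.581). In wild type the chronic controls read 11.86, 12.03, 11.81, 12.11 and 11.99 and the DSS arrays 11.83, 12.81, 10.85, 11.37 and 12.14, so the DSS arrays spread to both sides of the controls (-0.16 ± 0.32, limma adjusted p = 0.821). Knockout minus wild type was -0.41 ± 0.32 in chronic controls and 0.65 ± 0.32 under chronic DSS, and neither passed (limma adjusted p = 0.749 and 0.307).

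Gsdmc in the chronic phase ran from 7.13 to 7.51 in wild-type controls, 6.80 to 7.45 in wild-type DSS arrays, 7.05 to 7.22 in knockout controls and 7.21 to 7.38 in knockout DSS arrays. DSS minus control was -0.23 ± 0.12 in wild type (limma adjusted p = 0.195) and 0.12 ± 0.12 in the knockout (limma adjusted p = 0.559). Neither passed. Wild-type chronic DSS replicates 2 and 5, at 7.43 and 7.45, were at the level of the controls, and replicates 1, 3 and 4, at 6.97, 6.82 and 6.80, were below all of them.

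Gsdmd, the inflammasome effector, separated the genotypes under acute DSS. Wild-type acute controls read 9.59, 9.54 and 9.77, and wild-type acute DSS arrays read 9.15, 9.72, 9.22, 9.35 and 9.29. Knockout acute controls read 9.83, 9.71 and 9.88, and the 6 knockout acute DSS arrays had a lowest value of 9.76, a median of 9.95 and a highest of 10.17. All 6 knockout DSS arrays were above all 5 wild-type DSS arrays. The difference of 0.61 ± 0.09 (6 against 5 arrays, 1.53-fold higher) passed (limma adjusted p = 1.39e-05). Within the first series of animal numbers, where 3 knockout and 5 wild-type DSS arrays could be compared, it was 0.63 ± 0.11 (limma adjusted p = 6.31e-05). Without wild-type DSS replicates 1 and 3 it was 0.50 ± 0.10 (limma adjusted p = 0.00179). In acute controls the difference was 0.17 ± 0.12 and did not pass (limma adjusted p = 0.612).

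The effect of acute DSS on Gsdmd within a genotype was smaller. It fell in wild type by 0.28 ± 0.11 (limma adjusted p = 0.0408), with replicate 2 at the level of the controls. The call ended in the fits that left out wild-type DSS replicate 1, 3, 4 or 5 or wild-type control replicate 1 or 3 singly (adjusted p 0.0523 to 0.212), and without replicates 1 and 3 together the difference was -0.17 (limma adjusted p = 0.283). In the knockout DSS minus control was 0.15 ± 0.11 (limma adjusted p = 0.507). The interaction of 0.44 ± 0.16 did not pass (limma adjusted p = 0.0596), and it passed without wild-type DSS replicate 2 (0.53) or knockout DSS replicate 6 (0.48). It was at 0.42 with the series as a covariate, 0.40 without the arrays with Y-linked signal and 0.33 without wild-type DSS replicates 1 and 3 (limma adjusted p = 0.124, 0.127 and 0.22). Gsdmd is no copy of Gsdmc4, and the rule names only a value of Gsdmc4. The Gsdmd tests use the same arrays, and the members were chosen with earlier results known, so these tests are not independent of that choice.

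In the chronic phase Gsdmd showed no call. Its range was 9.67 to 9.84 in wild-type controls, 9.44 to 9.97 in wild-type DSS arrays, 9.46 to 9.78 in knockout controls and 9.47 to 9.80 in knockout DSS arrays. DSS minus control was -0.03 ± 0.10 in wild type and 0.03 ± 0.10 in the knockout (limma adjusted p = 0.884 and 0.905). Knockout minus wild type under chronic DSS was -0.09 ± 0.10 (limma adjusted p = 0.703), with a 95% interval of -0.28 to 0.11, and with the series as a covariate it was -0.02 ± 0.17.

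Gsdma, the skin-type member, fell with DSS by a small amount. It was dim on all arrays, with a highest value of 7.62, below the lowest array median over all clusters (7.67). Its signal was 7.32, 7.36 and 7.12 in wild-type acute controls and 6.88, 6.98, 7.15, 6.94 and 6.83 under acute DSS, with replicate 3 of the DSS group above the lowest control. The fall of 0.31 ± 0.10 passed (limma adjusted p = 0.0159), but not without wild-type control replicate 1 or 2 (adjusted p 0.0563 and 0.0875). In the knockout acute controls it was 7.14, 7.17 and 7.06, and under acute DSS it ran from 6.80 through a median of 6.97 to 7.26, a difference of -0.13 ± 0.10 (limma adjusted p = 0.554). Under chronic DSS it fell in the knockout by 0.30 ± 0.09 (limma adjusted p = 0.0373), from 7.41, 7.22, 7.49, 7.52 and 7.28 in controls to 7.19, 7.29, 6.99, 6.93 and 7.03, with 1 DSS array above the lowest controls. That call ended in 6 of 10 fits that left out 1 array, those without knockout DSS replicate 3, 4 or 5 or knockout control replicate 1, 3 or 4 (adjusted p 0.0739 to 0.11). In wild-type chronic arrays it read 7.41, 7.62, 7.38, 7.25 and 7.62 in controls and 7.01, 7.27, 7.28, 7.33 and 7.16 under DSS, a difference of -0.24 ± 0.09 that did not pass (limma adjusted p = 0.0663). No knockout minus wild-type difference of Gsdma passed, and under acute DSS it was 0.04 ± 0.09 (limma adjusted p = 0.757). The mean of 8 markers of squamous epithelium, the tissue Gsdma is known from, was 6.83 to 7.20 over all 37 arrays.

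**Figure D2:**
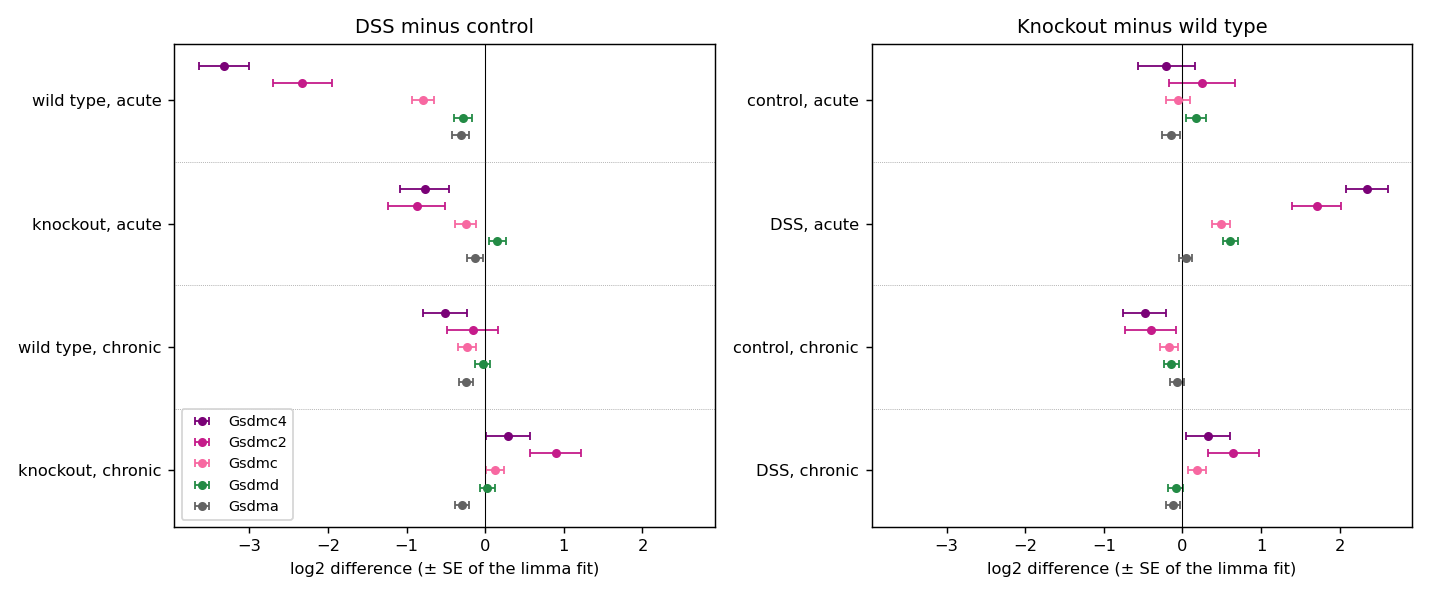
Fitted log2 differences of 5 gasdermin genes (points, with bars for the SE of the limma fit) for DSS minus control in each genotype and phase and for knockout minus wild type in each treatment and phase. Gsdmc4 stands at -3.32 for acute DSS in wild type and at 2.35 for knockout minus wild type under acute DSS, and Gsdmd at 0.61 in the latter.

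Set against all genes, the members' counts read as follows. Under acute DSS in wild type both tested members, Gsdmd and Gsdma, fell, where 41.2% of the 19938 genes passed in either direction. Of the 5 measured members, the 3 Gsdmc copies had all DSS arrays below all controls, as did 21.4% of all genes, and nothing is read from that count because the acute values may have chosen the family. Under acute DSS in the knockout 0 of 2 tested members passed, also 0 at an unadjusted p under 0.05, beside 1.12% of all genes. Between genotypes 0 of 2 passed in acute controls (also 0 unadjusted, background 1.12%) and 1 of 2, Gsdmd, under acute DSS, where 30.9% of all genes passed. In the acute interaction 0 of 2 passed by limma and 1 at an unadjusted p under 0.05, beside 12.3% of all genes.

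In the chronic phase all 5 measured members were tested. In wild type 0 of 5 passed for DSS by limma, with 1 at an unadjusted p under 0.05, beside 14.4% of all genes. In the knockout 1 of 5, Gsdma, passed, with 2 at an unadjusted p under 0.05, beside 7.94%. Between genotypes 0 of 5 passed by limma in chronic controls (0 unadjusted, background 0.100%) and 0 of 5 under chronic DSS (0 unadjusted, background 2.48%). In the chronic interaction 0 of 2 tested members passed (0 unadjusted), beside 0.421% of all genes.

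The order of the group means was alike for the Gsdmc copies at its lower end only. Gsdmc4 rose from wild-type acute DSS (9.22 ± 0.98, SD) to knockout acute DSS (11.56 ± 0.39), wild-type chronic DSS (12.00 ± 0.37), knockout chronic control (12.03 ± 0.22), knockout chronic DSS (12.32 ± 0.34), knockout acute control (12.33 ± 0.31), wild-type chronic control (12.51 ± 0.13) and wild-type acute control (12.54 ± 0.21). Of these 7 steps, the first 2 exceeded the larger SD of the neighbouring groups, and the other 5 did not. For Gsdmc and Gsdmc2 wild-type acute DSS was again lowest (6.45 ± 0.08 and 9.63 ± 0.97) and knockout acute DSS next, and only that first step exceeded the spread. Gsdmc2 was highest in knockout chronic DSS (12.45 ± 0.22), and Gsdmc in wild-type chronic controls (7.33 ± 0.14). Gsdmd ran from wild-type acute DSS (9.35 ± 0.23) to knockout acute DSS (9.96 ± 0.16) at the top, with only the lowest step beyond the spread. For Gsdma no step between neighbours exceeded the spread.

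Across the 37 arrays the Gsdmc copies moved together, and the other members moved less with them. Pearson's r of Gsdmc4 was 0.94 with Gsdmc2, 0.89 with Gsdmc, 0.48 with Gsdmd and 0.45 with Gsdma. With the group means removed, r of Gsdmc4 was 0.85, 0.59, 0.22 and -0.11 with the same genes. The arrays share groups, and clusters of the copies may share signal, so these are descriptions.

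The wild-type acute DSS arrays ordered by Gsdmc4, replicates 3, 1, 2, 5 and 4 from lowest to highest, have the reverse order for Timp1. Timp1 read 12.19 in replicate 3, 11.09 in replicate 1, 10.94 in replicate 2, 10.05 in replicate 5 and 9.47 in replicate 4. The mean log2 signal of the neutrophil markers had the same order as Timp1. It was 10.83, 10.01, 9.24, 8.38 and 8.31 in replicates 3, 1, 2, 5 and 4, so the order is not particular to Timp1. With 5 arrays no correlation is given.

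Epithelial markers moved with the Gsdmc copies in part. Of 8 epithelial markers 7 fell with acute DSS in wild type (median difference -0.59, against 0.01 over all genes), and 5 were higher in the knockout than in wild type under DSS. Over all genes 41.2% passed in either direction in the former comparison and 30.9% in the latter. Of 8 mature colonocyte markers (Car1, Ceacam1 and Car4 the brightest) 4 fell and 0 rose in wild type, with a median difference of -0.85. Over all genes 4348 of 19938 fell there. Their mean was 12.82 to 13.02 in wild-type acute controls and 11.22, 12.93, 9.63, 12.72 and 12.74 in wild-type DSS replicates 1 to 5. In replicate 2 the colonocyte mean thus lay within the range of the controls, while Gsdmc4 was 9.32 there against 12.33 to 12.75 in controls. In replicates 4 and 5 the colonocyte mean lay just below the lowest control, with Gsdmc4 at 10.15 and 10.13. In whole colon, fewer cells of a type and less RNA per cell cannot be told apart.

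Other cell type markers also moved under acute DSS, where 41.2% of all genes passed in wild type and 30.9% between genotypes. All 8 neutrophil markers rose in wild type, where their mean reached 8.31 to 10.83 against 6.28 to 8.85 in knockout DSS arrays, and 7 of 8 were lower in the knockout under DSS. Of 8 fibroblast markers 7 rose in wild type, and of 8 macrophage markers 5 rose. Of 7 measured goblet cell markers 3 fell and 0 rose in wild type, where 4348 of 19938 genes fell. Under DSS 4 of the 7 were higher in the knockout. The part of these cells in the gasdermin values was not tested.

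**Figure D3:**
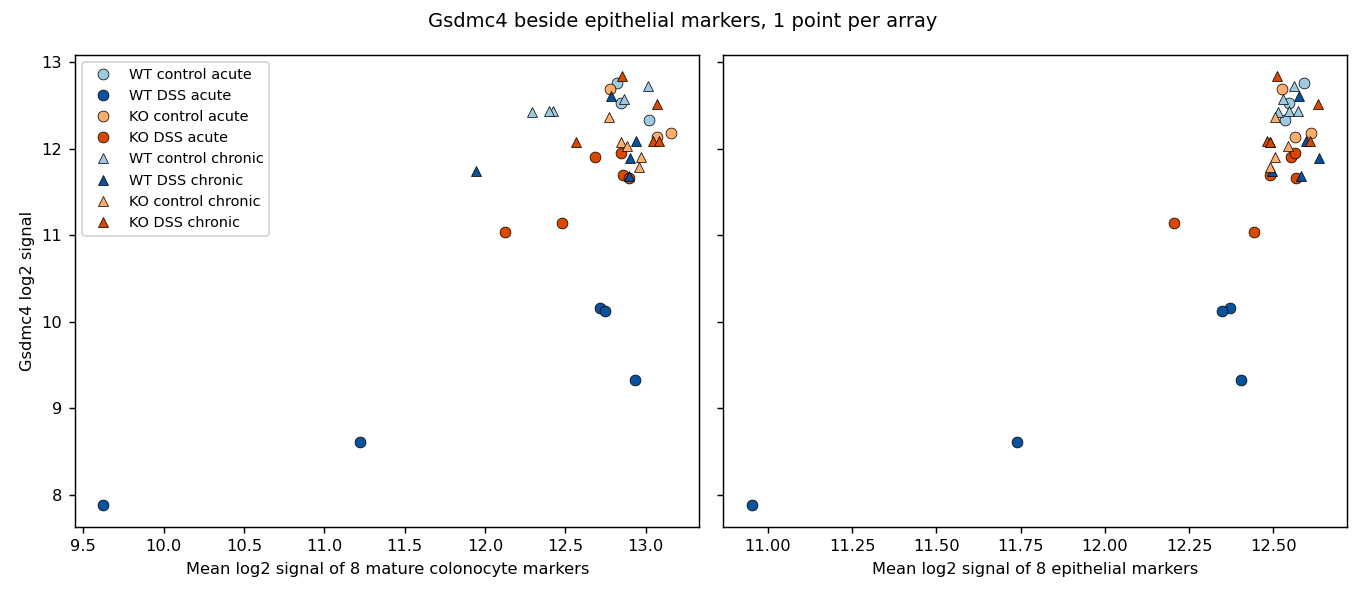
Gsdmc4 log2 signal against the mean log2 signal of 8 mature colonocyte markers (left) and 8 epithelial markers (right), 1 point per array, coloured by genotype and treatment (circles acute, triangles chronic). Of the wild-type acute DSS arrays, replicates 1 and 3 lie far to the left in both panels, and replicates 2, 4 and 5 lie near the other arrays on the marker axes while Gsdmc4 is at 9.32 to 10.15.

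The genes whose pattern over 37 arrays was most like Gsdmc4 were Inpp5j (r 0.938), Gsdmc2 (0.935), Il17rc (0.928), Tmem164 (0.926) and Cnnm4 (0.920). Spearman's rho with Gsdmc4 was 0.629, 0.818, 0.655, 0.698 and 0.672 in the same order. The rank measure thus kept Gsdmc2 near the top (rank 2) and placed the others at ranks of 174 to 506.5 (ties averaged). Inpp5j, an inositol polyphosphate phosphatase, had differences of -2.06 ± 0.30 with acute DSS in wild type and 1.55 ± 0.25 between knockout and wild type under DSS, and Il17rc, a receptor chain for interleukin 17 cytokines, had -0.93 ± 0.15 and 0.80 ± 0.12. Both genes were picked for their likeness to Gsdmc4 over the same arrays, so their differences follow from that choice and are a description. For Gsdmd the most alike were Plcl2 (r 0.806), Ces2f (0.769), Trim14 (0.768), Ehmt2 (0.764) and Ly75 (0.753), with rho of 0.758, 0.689, 0.640, 0.734 and 0.646.

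Of the other gasdermin genes on the array, Gsdma2 fell in the knockout under chronic DSS by 0.25 ± 0.08 (limma adjusted p = 0.0431), a call that ended without any 1 of knockout DSS replicates 1, 3, 4 and 5 or knockout controls 1, 3 and 4 (-0.24 to -0.21, adjusted p 0.077 to 0.132). Gsdma2 was dim, with a highest value of 5.95, below the lowest array median of 7.67. Gsdma3, Gsdme and Pjvk, the last known from hearing loss, passed by limma in none of the 10 comparisons, with 1, 0 and 0 at an unadjusted p under 0.05. Gsdme differed within the knockout acute DSS group, at 7.56 to 7.89 in replicates 1 to 3 and 8.50 to 9.12 in replicates 4 to 6, which belong to different series of animal numbers.

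The proteases, sensors and cytokines that act with gasdermins were read from a list of 48 genes, of which 41 were measured. With acute DSS in wild type 12 of 41 rose and 13 fell, beside 41.2% of all genes that passed, with a median of 0.23 against 0.01 over all genes. Il1b, a cytokine released through gasdermin pores, rose by 3.55 ± 0.59 (limma adjusted p = 2.31e-05), and Il1a rose by 3.24 ± 0.65 (limma adjusted p = 0.000201). Gzmb, a granzyme of cytotoxic cells, rose by 1.99 ± 0.45, and Gbp5, an interferon-induced GTPase, by 1.48 ± 0.46 (limma adjusted p = 0.000712 and 0.0109). Without wild-type DSS replicates 1 and 3 the counts were 8 and 4, Il1b was at 2.67 (limma adjusted p = 0.000549), Gzmb at 1.30 (limma adjusted p = 0.0209), and Gbp5 at 0.86 no longer passed (limma adjusted p = 0.137).

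Inflammasome genes moved in both directions in wild type. Casp12 rose by 1.02 ± 0.20 (limma adjusted p = 0.00018), and the sensors Nlrp3 and Mefv, named after their values were seen, rose by 1.27 ± 0.33 and 1.05 ± 0.25 (limma adjusted p = 0.00245 and 0.00104). Casp4, which cuts Gsdmd in the noncanonical pathway, was at 0.36 ± 0.22 and did not pass (limma adjusted p = 0.198). Casp1, the protease that cuts Gsdmd and Il1b, fell by 0.92 ± 0.23 (limma adjusted p = 0.00175) and Pycard, its adaptor, by 1.03 ± 0.24 (limma adjusted p = 0.000813). Il18, a Casp1 substrate made by epithelium, fell by 1.46 ± 0.48 (limma adjusted p = 0.0153), and Nlrp6, an epithelial sensor, by 1.10 ± 0.31 (limma adjusted p = 0.00494). Without replicates 1 and 3 Pycard was at -0.43 (limma adjusted p = 0.00341), while Casp1 at -0.40, Il18 at -0.71 and Nlrp6 at -0.37 no longer passed (limma adjusted p = 0.05, 0.248 and 0.103). Il18 also failed to pass without wild-type DSS replicate 3 or without wild-type control replicate 3 alone (differences from -1.40 to -1.11, adjusted p from 0.0573 to 0.0591). Fitted with only the acute wild-type groups, Casp1, Pycard, Il18, Nlrp6 and Gbp5 did not pass (limma adjusted p from 0.0777 to 0.153). Nlrp10 and Nlrp1b, at -1.06 ± 0.22 and -1.02 ± 0.17, passed in all alternatives run for that comparison.

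In the knockout with acute DSS 1 of the 41 passed, beside 1.12% of all genes. At an unadjusted p under 0.05 there were 18 of 41, against 28 in wild type. The gene that passed was Il1b, with a rise of 2.43 ± 0.57 (limma adjusted p = 0.0307). That call ended in 6 of 9 fits without 1 array, those without any 1 of knockout DSS replicates 1 to 3 or any 1 of the knockout controls (2.22 to 2.50, adjusted p 0.0503 to 0.147). Within series 2 Il1b was at 1.91 (limma adjusted p = 0.219). Between genotypes under acute DSS 19 of 41 were higher in the knockout and 3 lower, beside 30.9% of all genes that passed, with a median of 0.27 against 0.02 over all genes, and 12 and 0 without wild-type replicates 1 and 3. Higher in the knockout were Zbp1, a nucleic acid sensor, by 1.70 ± 0.25, Nlrp6 by 1.54 ± 0.26, Gzma by 1.49 ± 0.23, Nlrp1b by 1.24 ± 0.14 and Casp1 by 0.93 ± 0.19 (limma adjusted p from 4.54e-07 to 0.000375). For all of these genes the mean of the knockout acute controls also lay above both wild-type acute groups, and those controls belong to another series. Casp1 did not pass when only the groups compared were fitted (limma adjusted p = 0.0625). Without wild-type DSS replicates 1 and 3 Nlrp6 was at 0.80 (limma adjusted p = 0.000565) and Casp1 at 0.41 (limma adjusted p = 0.0404). Il1a was lower in the knockout, at -1.58 ± 0.54 (limma adjusted p = 0.0236), but not without wild-type DSS replicate 3 or knockout DSS replicate 4 or 5 (-1.38 to -0.81, adjusted p 0.0611 to 0.169), and within series 1 it was at -0.74 (limma adjusted p = 0.398), and without wild-type DSS replicates 1 and 3 at -0.60 (limma adjusted p = 0.43). Casp4 and Casp8 passed by limma in none of the 10 comparisons, with 4 and 1 at an unadjusted p under 0.05. Without wild-type DSS replicates 1 and 3 Casp8 came to pass for acute DSS in wild type (0.34, limma adjusted p = 0.0407). In that fit Gzmb came to pass for knockout minus wild type under acute DSS (1.64, limma adjusted p = 0.0032). In acute controls 0 of 41 passed by limma between genotypes, with 8 at an unadjusted p under 0.05.

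**Figure D4:**
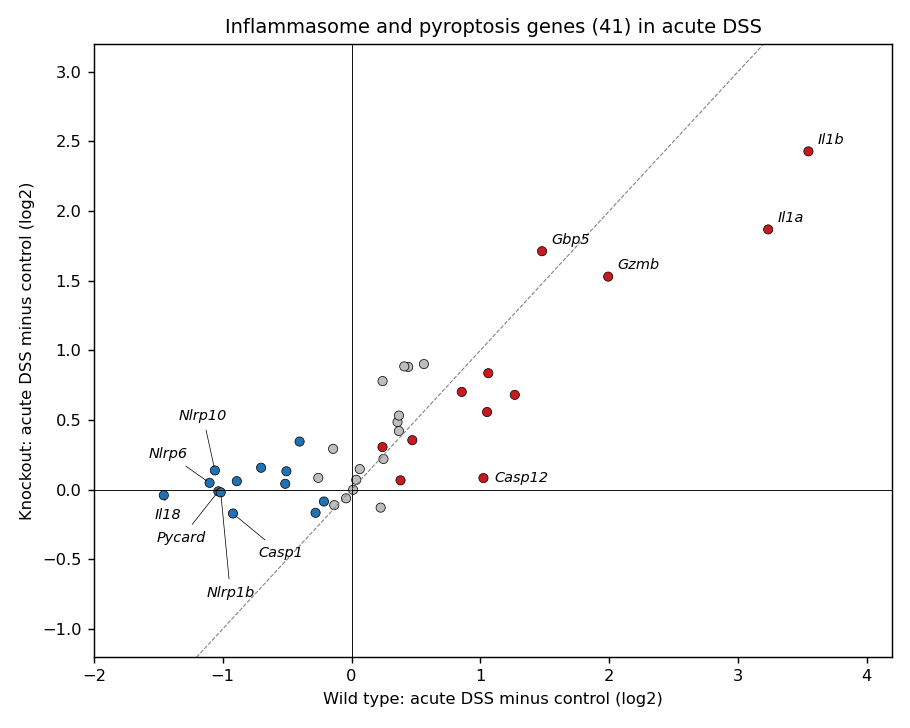
Log2 difference between acute DSS and control in wild type (horizontal) and in the knockout (vertical) for 41 inflammasome and pyroptosis genes, with red points for genes that rose and blue points for genes that fell in wild type by limma at an adjusted p under 0.05, grey points for the rest, and a dashed line of equality. Il1b stands at 3.55 and 2.43. The genes that fell in wild type lie at -0.17 or above in the knockout, some of them, such as Irf1 and Nlrp6, above 0.

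In the chronic phase 7 of 41 list genes passed for DSS in wild type and 4 of 41 in the knockout, beside 14.4% and 7.94% of all genes. At an unadjusted p under 0.05 there were 16 and 14. In wild type 5 rose and 2 fell, among them Il1b at 2.50 ± 0.51 (limma adjusted p = 0.00102), Gzmb at 1.44 ± 0.39 (limma adjusted p = 0.0113) and Ripk3, a kinase of necroptosis, at 1.08 ± 0.17 (limma adjusted p = 6.24e-05). In the knockout 2 rose and 2 fell, led by Hmgb1, a nuclear protein released from dying cells, at 0.65 ± 0.12 and Ninj1, which ruptures the membrane after gasdermin pores open, at -0.46 ± 0.11 (limma adjusted p = 0.00158 and 0.00975). Between genotypes 0 of 41 passed by limma in chronic controls and 0 under chronic DSS, with 3 and 9 at an unadjusted p under 0.05. Within series 3 the rise of Gzmb did not pass (1.31, limma adjusted p = 0.0634).

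Of the known regulators of the Gsdmc copies and of Gsdmd, Il4ra, the receptor chain shared by Il4 and Il13, rose in wild type with acute DSS by 1.50 ± 0.20 (limma adjusted p = 1.22e-06) and with chronic DSS by 1.02 ± 0.17 (limma adjusted p = 0.000128). In the knockout it rose by 0.76 ± 0.19 with acute DSS (limma adjusted p = 0.0427), a call that ended without any 1 of the knockout controls or of knockout DSS replicates 1, 2, 3 and 6 (0.64 to 0.81, adjusted p 0.0508 to 0.159), and was at 0.52 ± 0.17 with chronic DSS (limma adjusted p = 0.0586). It was lower in the knockout than in wild type under acute DSS by -0.59 ± 0.17 (limma adjusted p = 0.00674), and at -0.32 (limma adjusted p = 0.231) without wild-type replicates 1 and 3. That call also ended with array weights (-0.30), with the series as a covariate (-0.51) and with only the groups compared (adjusted p 0.0551 to 0.131). Stat6 rose by 0.21 ± 0.07 and Il13 by 0.22 ± 0.08 with acute DSS in wild type (limma adjusted p = 0.0253 and 0.0242), and neither call was stable. Stat6 did not pass without wild-type DSS replicate 3 or any 1 of the wild-type controls (0.17 to 0.22, adjusted p 0.0601 to 0.076) or without DSS replicates 1 and 3 together (0.15, adjusted p = 0.166), nor Il13 without DSS replicate 4 or control 3 (0.15 to 0.19, adjusted p 0.0568 to 0.2). Il4 passed by limma in none of the 10 comparisons, also 0 at an unadjusted p under 0.05. Irf2, a transcription factor known to drive Gsdmd, fell in wild type with acute DSS by 0.28 ± 0.10 (limma adjusted p = 0.0277) and with chronic DSS by 0.34 ± 0.09 (limma adjusted p = 0.00916). The acute call of Irf2 ended without wild-type DSS replicate 1 or without wild-type control replicate 1 or 3 (-0.26 to -0.25, adjusted p 0.0609 to 0.11) and without DSS replicates 1 and 3 together (-0.26, adjusted p = 0.0895). Irf2 was at 0.20 ± 0.08 between knockout and wild type under acute DSS, where all knockout arrays lay above all wild-type arrays, and did not pass (limma adjusted p = 0.0701).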

How the data were processed

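Each of 37 mice gave 1 colon RNA sample, read on 1 whole-transcript expression array (Affymetrix Mouse Gene 1.0 ST), and the groups follow genotype, phase and treatment in the labels. The authors deposited log2 signals per transcript cluster made with RMA, per the submitters' processing notes; the log base was read as 2 from the range of 3.03 to 14.96, and version, probe filter and build are not given in the sources used here. Arrays carry no molecule count, so their number per group limits the precision.

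Of 35511 clusters, 21789 carried 1 gene symbol, 1621 several and 12101 were not listed. The cluster with the highest mean over 37 arrays was kept per symbol, which left 19938 genes. A mean for each of 8 groups was fitted with limma 3.58.1 (R 4.3.3), whose default moderation gave 3.18 prior beside 29 residual degrees of freedom, and the script was tested on simulated data. P-values are two-sided, with Benjamini-Hochberg adjustment within each of 10 comparisons and a threshold of 0.05. Intervals are 95% intervals of that fit. Shared clusters were fitted with all clusters.

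The members and lists were chosen with earlier results of these data known. Named were all members, other gasdermins, Timp1, 5 regulators (Stat6, Il4ra, Il13, Il4, Irf2), Casp1, Casp4, Casp8, Il1b and Il18, up to 5 list genes with the largest difference among those passing per comparison, the 5 genes most like Gsdmc4 and Gsdmd, and the 3 brightest markers of a list. Alternatives covered the prior, a filter on dim genes, all clusters, cyclic loess, array weights, series of animal numbers, sex, groups fitted alone and each array left out. Marker lists for tuft cells, smooth muscle and T cells were also read, with 7, 8 and 8 genes measured. Of these, 1, 0 and 3 rose and 2, 0 and 0 fell in wild-type acute colitis, beside 41.2% of all genes that passed.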

Additional observations from a re-analysis of the deposited data

Results flagged for a closer look

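The effect of DSS differed between the genotypes, by the interaction term of the limma fit, for 7 of the genes read beside the gasdermins. For Timp1 the acute interaction (knockout effect minus wild-type effect) was -2.52 (SE 0.55, adjusted p = 0.00468). In the acute phase it was 1.20 for Nlrp10 (adjusted p = 0.0105), 1.02 for Pycard (adjusted p = 0.0389), 1.00 for Nlrp1b (adjusted p = 0.00828), 0.75 for Irf1 (adjusted p = 0.0213) and -0.94 for Casp12 (adjusted p = 0.0277). In the chronic phase it was 0.69 for Aim2, a sensor of cytosolic DNA (adjusted p = 0.0429). The acute calls of Pycard, Casp12 and Irf1 and the chronic call of Aim2 ended in 11 of 17, 5 of 17, 2 of 17 and 13 of 20 fits without 1 array. With the series of animal numbers as a covariate the acute calls of Nlrp10 (0.80, adjusted p = 0.0671), Pycard (adjusted p = 0.102) and Irf1 (0.51, adjusted p = 0.12) ended. With only the groups compared, those of Nlrp1b, Nlrp10, Irf1 and Pycard ended (adjusted p = 0.057, 0.0737, 0.0931 and 0.206). Without wild-type acute DSS replicates 1 and 3 those of Pycard (0.42, adjusted p = 0.0745) and Casp12 (-0.80, adjusted p = 0.103) ended. Of the 41 list genes 5 passed in the acute interaction, beside 12.3% of all genes, and 1 in the chronic, beside 0.421%. In the 30 groups of 4 to 6 arrays checked over the 5 gasdermins, 0 held an array far from the others.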

How the results depend on the processing

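No paired analysis was possible because the animal numbers in the labels are not shared between groups. No gasdermin difference that passed changed direction in any alternative run. In the acute phase, neither did the DSS effects, the interactions and the knockout minus wild-type differences under DSS of the Gsdmc copies. With array weights, Gsdmc4 was at -2.63 for acute DSS in wild type, 1.81 for knockout minus wild type under acute DSS and 2.00 for the acute interaction, and Gsdmc2 at -1.75, 1.17 and 0.86, with 1.00 for chronic DSS in the knockout. Without wild-type acute DSS replicates 1 and 3 the same acute values were -2.67, 1.70 and 1.90 for Gsdmc4 and -1.73, 1.11 and 0.86 for Gsdmc2. Fitting only the groups compared gave Gsdmc2 0.89 for chronic DSS in the knockout, now past the threshold, and -0.28 for Gsdmd (acute DSS, wild type, adjusted p = 0.133) and -0.30 for Gsdma (chronic DSS, knockout, adjusted p = 0.054), both no longer past it. Gsdmd in wild-type acute DSS also failed to pass with all clusters (-0.28, adjusted p = 0.0527), with cyclic loess (-0.16, adjusted p = 0.256) and without replicates 1 and 3 (-0.17), and ran from -0.38 to -0.22 with 1 array left out. The acute interaction of Gsdmd passed with array weights (0.40, adjusted p = 0.017) and without the dimmest genes (0.44, adjusted p = 0.0475), but not with the series as a covariate (0.42, adjusted p = 0.124), and ran from 0.37 to 0.53 with 1 array left out. Gsdma ran from -0.39 to -0.27 (acute DSS, wild type), -0.30 to -0.19 (chronic DSS, wild type) and -0.35 to -0.26 (chronic DSS, knockout) with 1 array left out. For chronic DSS in wild type Gsdma passed with cyclic loess (-0.24) and array weights (-0.28), and in the knockout it did not pass with cyclic loess (-0.25). The causes were not tested. Of the members' recomputed differences, 946 kept their side of the threshold or, where untested, moved by less than the spread between arrays. Differences that did not pass could change sign within that count. Gsdmc did so for knockout minus wild type under chronic DSS, at 0.19 and at -0.02 with the series as a covariate. Of the other recomputed differences, 13 moved further, 11 came to pass and 20 no longer passed. Counts over all genes moved by more than 1.5 times in many alternatives, for example from 14 higher genes in chronic controls between genotypes to between 3 and 700.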
